A study of Mus musculus with 8 samples.

Results

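Tight junction genes were compared by RNA sequencing between 2 fractions sorted from 4T1 cells, a line derived from a mouse mammary carcinoma. The set holds 9 genes that were matched by symbol to Ensembl identifiers among 16341 genes counted: the claudins Cldn1, Cldn3, Cldn4, Cldn6 and Cldn7, the membrane proteins Ocln, Marveld2 and F11r, and the scaffold Tjp1. Of these, 8 passed the low-count filter and were tested, and Cldn1 was not. The Sca1+ group held 4 libraries of cells that carried SCA1, the surface protein encoded by Ly6a, and the Sca1- group held 4 libraries of cells that did not. The labels name no drug or genetic change for either fraction, and give a CD45-negative gate for both, CD45 being the general leukocyte surface antigen. The labels give parental 4T1 as the source, and the paper states that the profiled fractions came from the parental 4T1 line. The extraction protocol speaks of stained tumor, so the groups are named here by their gate alone. Nothing in the labels says whether the 4 replicates were separate cultures or sorts, and p-values then measure the spread between these libraries only. Sca1+ replicate 3 stood apart from the other libraries in how its counts depended on transcript GC content, and some results are given with and without it. The study asked which transcripts distinguish cells with and without SCA1.

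Tight junctions seal the space between neighbouring epithelial cells and separate the apical from the basolateral membrane. Claudins are small membrane proteins with 4 transmembrane passes that form the strands of the junction and set which ions pass between cells. Occludin (Ocln) and tricellulin (Marveld2) belong to the MARVEL-domain proteins, with occludin along the strands and tricellulin mostly where 3 cells meet. F11r encodes junctional adhesion molecule A, an immunoglobulin-like adhesion protein, and Tjp1 encodes ZO-1, a scaffold that ties claudins and occludin to actin. In mammary and other simple epithelia Cldn3, Cldn4 and Cldn7 are among the claudins usually found.

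The promoters of 4 of the genes are shown because they form 2 pairs of chromosomal neighbours of which both partners were lower in Sca1+ cells. Each sequence covers the 250 bases before the RefSeq start, written 5′ to 3′ on the strand of the gene, from GRCm38.p6. All 9 genes matched the RefSeq promoter table. Capitals mark the E-box CACCTG, a sequence bound by repressors of the Snail and Zeb families, and the GC box GGGCGG, a sequence bound by Sp1, each searched on both strands, so that their reverse complements CAGGTG and CCGCCC are also in capitals.
Cldn3, chr5:134985964-134986213, plus strand: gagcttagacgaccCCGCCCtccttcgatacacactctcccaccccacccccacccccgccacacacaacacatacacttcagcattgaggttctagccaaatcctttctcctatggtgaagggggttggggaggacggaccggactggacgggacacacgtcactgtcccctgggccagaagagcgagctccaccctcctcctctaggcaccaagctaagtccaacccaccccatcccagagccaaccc
Cldn4, chr5:134946935-134947184, minus strand: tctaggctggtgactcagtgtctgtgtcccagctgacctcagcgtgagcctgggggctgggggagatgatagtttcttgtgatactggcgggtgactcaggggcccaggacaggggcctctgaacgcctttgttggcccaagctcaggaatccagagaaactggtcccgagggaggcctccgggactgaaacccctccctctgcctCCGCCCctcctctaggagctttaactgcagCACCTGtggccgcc
Ocln, chr13:100552719-100552968, minus strand: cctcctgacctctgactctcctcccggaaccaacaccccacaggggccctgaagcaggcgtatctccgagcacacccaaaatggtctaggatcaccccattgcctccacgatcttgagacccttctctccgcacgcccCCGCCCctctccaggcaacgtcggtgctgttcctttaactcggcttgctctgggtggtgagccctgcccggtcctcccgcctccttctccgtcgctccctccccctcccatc
Marveld2, chr13:100616972-100617221, minus strand: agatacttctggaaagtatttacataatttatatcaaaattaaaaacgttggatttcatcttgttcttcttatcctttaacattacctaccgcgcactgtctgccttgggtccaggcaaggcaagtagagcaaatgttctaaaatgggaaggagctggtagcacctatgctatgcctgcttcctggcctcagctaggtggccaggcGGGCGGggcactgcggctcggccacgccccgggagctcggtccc
The E-box stood 14 bases before the start of Cldn4. The same letters were found 93 bases before the start of Cldn6 and 122 bases before that of F11r, and in none of the other 6 windows. Over all 32851 RefSeq promoter windows of this length, 17.2% held the E-box letters. The GC box was in the windows of 8 of the 9 genes, all but Cldn7, against 32.7% of all windows. The palindrome AACCGGTT, bound by grainyhead-like factors, was in none of the 9 windows and in 0.116% of all windows. A match of letters is a description of the sequence and not a binding site.

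Of the 8 genes tested, 6 were lower in Sca1+ cells, namely Ocln, Cldn4, Marveld2, Cldn3, Tjp1 and F11r, and Cldn6 and Cldn7 did not pass the test. The level in Sca1- cells was 1.57-fold higher for Ocln, 1.54-fold for Cldn4, 1.43-fold for Marveld2, 1.29-fold for Cldn3, 1.23-fold for Tjp1 and 1.13-fold for F11r. A gene was called at an adjusted p under 0.05 by the quasi-likelihood test of edgeR, adjusted over all 11717 genes tested. Calls were common in this comparison: 61.5% of all tested genes were called, 30.2% as lower and 31.3% as higher in Sca1+ cells. No gene of the set was higher by edgeR, either at an adjusted p under 0.05 or at an unadjusted p under 0.05, or by DESeq2. The median log2 fold change of the 8 genes was -0.34, beside 0.01 over all tested genes. In 5 genes (Cldn4, Ocln, Marveld2, F11r and Tjp1) every Sca1+ library lay below every Sca1- library, and such a separation was seen in 27.9% of all tested genes in this direction, 26.8% in the other and 54.7% in either. All of the differences were under 2-fold, while 6.1% of tested genes were called with at least a 2-fold difference. Summed over the 9 genes, normalized counts ran from 12180.0 to 13640.0 in the Sca1+ libraries and from 16680.0 to 17590.0 in the Sca1- libraries. Because these are bulk samples, fewer cells that express a gene and less RNA per cell cannot be told apart.

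**Figure D1:**
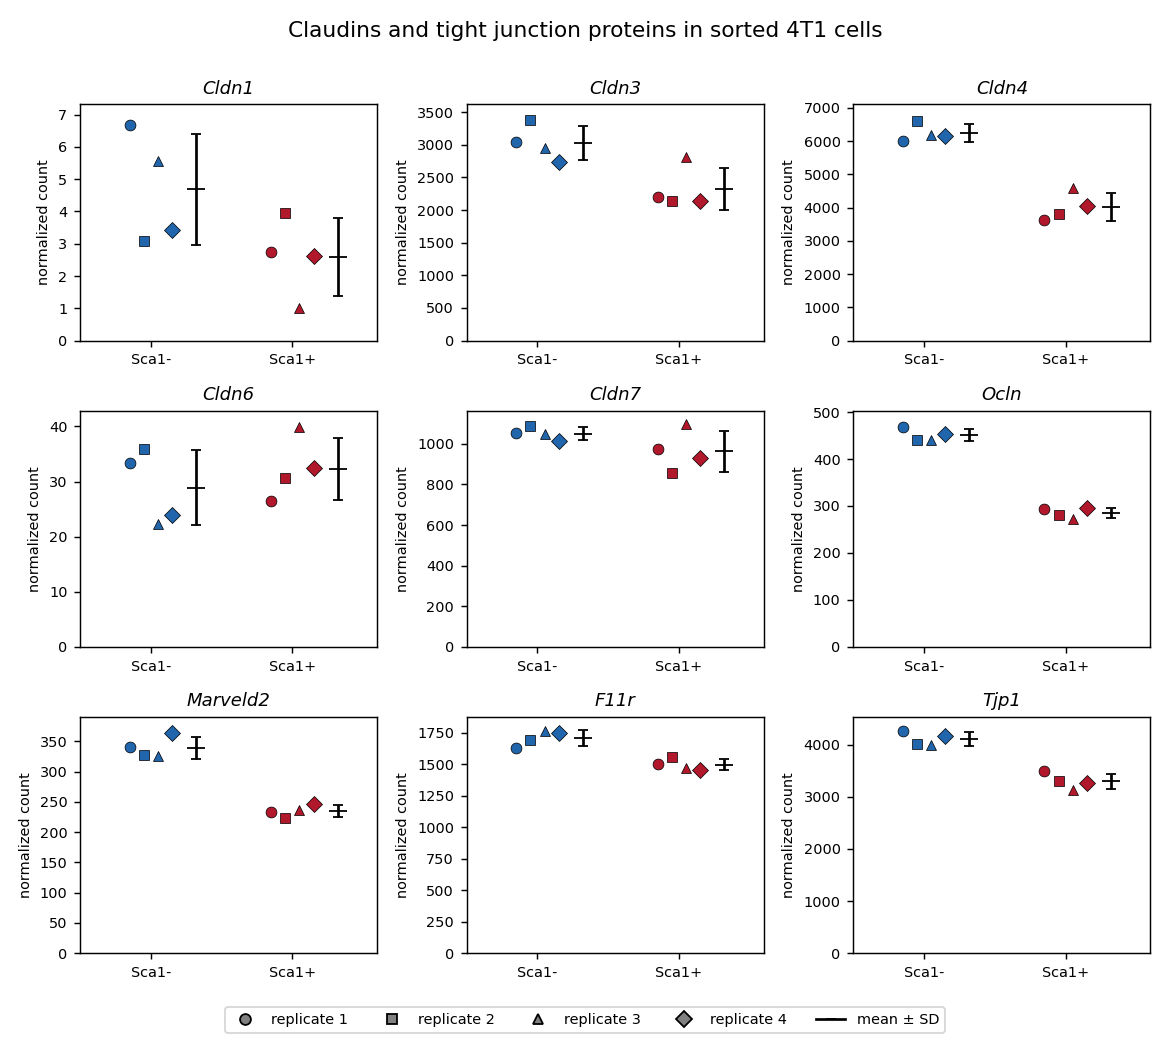
Normalized counts (reads divided by the size factor of the library, linear axes from 0) of the 9 genes in each library, with blue symbols for Sca1- and red symbols for Sca1+, a symbol shape for each replicate number, and black bars for the mean ± SD of 4 libraries. The groups are separate in Cldn4, Ocln, Marveld2, F11r and Tjp1, and Cldn3 overlaps only through Sca1+ replicate 3 at 2811.

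Cldn4, a claudin widely found in simple epithelia, had the highest level per length of the 9 genes. Its normalized counts were 3621, 3799, 4579 and 4056 in Sca1+ replicates 1 to 4 and 6012, 6611, 6169 and 6158 in Sca1- replicates 1 to 4. The groups were well separated, and replicate 3 was the highest Sca1+ library. The means were 4014 ± 417 and 6237 ± 259 (SD, n = 4), a log2 fold change of -0.62 ± 0.06 (standard error; adjusted p 8.74e-08). Without replicate 3 of Sca1+ the log2 fold change was -0.69. Cldn4 (ENSMUSG00000047501) lies on GRCm38 chromosome 5, 134945119 to 134946934, minus strand.

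Cldn3, the second most abundant claudin, lies beside it on chromosome 5 (ENSMUSG00000070473, 134986214 to 134987472, plus strand). It had 2206, 2138, 2811 and 2136 normalized counts in the Sca1+ libraries and 3041, 3377, 2958 and 2742 in the Sca1- libraries. Replicates 1, 2 and 4 of Sca1+ lay below all Sca1- libraries, and replicate 3 lay among them. The log2 fold change was -0.37 ± 0.08 (standard error; adjusted p 0.000468), and it was -0.48 with replicate 3 of Sca1+ left out. Of the exon bases of Cldn3, 3.18% are shared with Wbscr25 on the opposite strand, and since the library kit does not mark strand, reads of these bases cannot be told apart.

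Cldn7, which is found along the basolateral membrane as well as in the junction, differed least among the 3 abundant claudins. Its counts were 974, 855, 1095 and 928 in Sca1+ cells and 1054, 1088, 1046 and 1012 in Sca1- cells. The groups overlapped, again with Sca1+ replicate 3 as the highest library of all. The log2 fold change of -0.11 ± 0.06 (standard error) had an adjusted p of 0.130. Without that library it was -0.18, with an adjusted p of 0.0047, so that 1 library decided the call. Cldn7 (ENSMUSG00000018569) is on chromosome 11, 69964779 to 69967885, plus strand.

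Cldn6, a claudin of embryonic epithelia, was near the lower end of what was tested. It had 26.5, 30.6, 39.9 and 32.4 normalized counts in Sca1+ and 33.4, 35.9, 22.3 and 24.0 in Sca1- libraries. The groups overlapped throughout, and the difference of 0.16 ± 0.20 on the log2 scale (standard error) had an adjusted p of 0.525. Without Sca1+ replicate 3, the highest library, the difference was 0.04. Cldn6 (ENSMUSG00000023906) lies on chromosome 17, 23679249 to 23682446, plus strand.

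Cldn1, a claudin prominent in skin and other stratified epithelia, was barely detected. Its raw counts were 3, 4, 1 and 3 in Sca1+ and 7, 3, 5 and 3 in Sca1- libraries, 11 and 18 reads in all. At this depth a difference was not detectable: with the low-count filter removed the difference on the log2 scale was -0.84 ± 0.60 (standard error; adjusted p 0.262). Cldn1 (ENSMUSG00000022512) is on chromosome 16, 26356642 to 26371841, minus strand.

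Ocln had the largest fold of the 8 tested genes in the fit of all libraries, though not without Sca1+ replicate 3 (-0.63, beside -0.69 for Cldn4) or with correction for GC content (-0.54, beside -0.77 for Cldn4 and -0.69 for Cldn3). Normalized counts were 293, 280.1, 272 and 296 in Sca1+ cells and 469, 441, 441 and 454 in Sca1- cells. There was no overlap, with a wide gap between the groups. The difference came to -0.65 ± 0.06 on the log2 scale (standard error; adjusted p 1.23e-07). Ocln (ENSMUSG00000021638) lies on chromosome 13, 100496507 to 100552718, minus strand.

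Marveld2, the tricellulin gene, was measured at 233, 224, 236 and 246 normalized counts in Sca1+ and at 340.0, 326, 326 and 364 in Sca1- libraries. Here too the groups did not overlap, and the difference was -0.52 ± 0.07 on the log2 scale (standard error; adjusted p 6.39e-06). Marveld2 (ENSMUSG00000021636) is on the same chromosome as Ocln and the same strand, at 100595957 to 100616971. Its relative Marveld3, the third protein of this family at junctions, had 129.9 ± 22.6 normalized counts in Sca1+ and 125.4 ± 16.3 in Sca1- cells (SD, n = 4), with a log2 fold change of 0.05 and an adjusted p of 0.743. The sign for Marveld3 turned to -0.03 when Sca1+ replicate 3 was left out.

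F11r, the JAM-A gene, had the smallest difference among the genes called. Its counts were 1504, 1556, 1467 and 1455 in Sca1+ cells and 1626, 1688, 1763 and 1744 in Sca1- cells. The groups were close but did not overlap, and the log2 fold change of -0.18 ± 0.05 (standard error) had an adjusted p of 0.00325. F11r (ENSMUSG00000038235) is on chromosome 1, 171437535 to 171464603, plus strand. Its relatives Jam2 and Jam3, which encode JAM-B and JAM-C, were not tested, with 6 and 0 reads over the Sca1+ libraries and 3 and 1 over the Sca1- libraries.

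Tjp1, the ZO-1 gene, was at 3490.5, 3299, 3136 and 3275 normalized counts in Sca1+ and at 4256, 4018, 3994 and 4173 in Sca1- libraries. All Sca1+ libraries were below all Sca1- libraries, with a log2 fold change of -0.30 ± 0.05 (standard error; adjusted p 1.84e-05). Tjp1 (ENSMUSG00000030516) lies on chromosome 7, 65296165 to 65527781, minus strand. Tjp3, which encodes the related scaffold ZO-3, was higher in Sca1+ cells, at 351 ± 35.0 against 267 ± 18.8 normalized counts (SD, n = 4; log2 fold change 0.40, adjusted p 0.000304). The difference of Tjp3 shrank to 0.15 (adjusted p 0.0357) when counts were corrected for the GC content of transcripts, and its call was lost (adjusted p 0.0606) when Sca1+ replicate 3 was also left out.

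**Figure D2:**
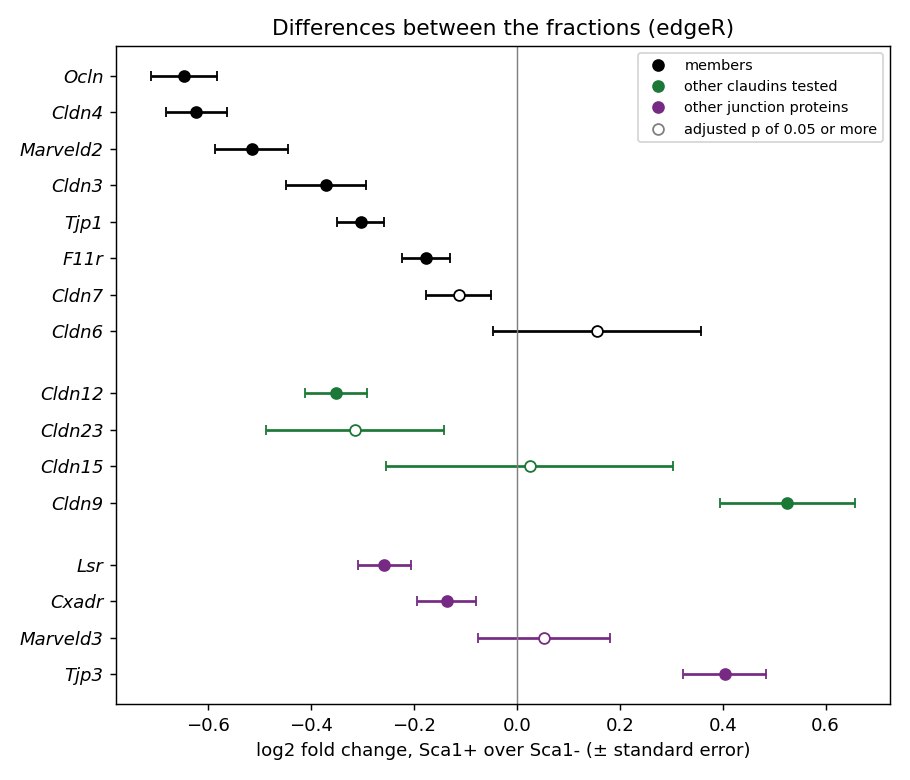
Log2 fold change of Sca1+ over Sca1- (points) with its standard error (bars) from the edgeR fit, for the 8 tested genes of the set in black, 4 other tested claudins in green and 4 other junction proteins in purple, with open circles where the adjusted p was 0.05 or more. Ocln at -0.65 and Cldn4 at -0.62 lie furthest to the left, and Cldn9 at 0.53 and Tjp3 at 0.40 lie on the other side of 0.

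The order of the genes was compared on the scale of normalized counts per kilobase of exon, since longer transcripts give more reads. Cldn4 led both groups, with a mean level of 2210.0 per kilobase in Sca1+ and 3435 in Sca1- cells, followed by Cldn3 with 1845 and 2406. The ranges of these leading genes overlapped in Sca1+ libraries and not in Sca1- libraries. F11r, Cldn7 and Tjp1 came next, at 562, 494 and 422 per kilobase in Sca1+ cells, where each overlapped its neighbour, and at 640.4, 539 and 526 in Sca1- cells, where Cldn7 and Tjp1 overlapped and F11r was above both. Marveld2 and Ocln were close to each other in both groups, with 69.4 and 67.6 per kilobase in Sca1+ and 100.3 and 107 in Sca1- cells, their ranges overlapping in each. Cldn6 (18.8 and 16.8) and Cldn1 (0.532 and 0.969) were last.

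The claudin family as a whole was narrow in these cells. Of 28 claudin genes on the list, 15 had a row in the count table and 8 were tested. Cldn3 and Cldn4 together made up 81.2% to 84.0% of claudin reads per kilobase in the Sca1+ libraries and 85.6% to 86.9% in the Sca1- libraries, ranges that did not overlap. The share of Cldn4 was lower in Sca1+ libraries (43.2% to 47.0%) than in Sca1- libraries (49.5% to 52.3%), while that of Cldn3 overlapped (35.7% to 39.5% and 33.6% to 36.9%). Per library, the ratio of Cldn4 to Cldn3 was 1.13 to 1.32 in Sca1+ and 1.36 to 1.56 in Sca1- cells. Cldn7 held 9.58% to 10.8% of the claudin reads in Sca1+ and 7.68% to 8.10% in Sca1- cells, so its share was larger in the fraction in which the total was smaller. That total was 4583 to 5658 normalized counts per kilobase in Sca1+ and 6490 to 7274 in Sca1- libraries. These shares and the ratio are descriptions, were not tested and were not corrected for the GC content of transcripts. Cldn3 and Cldn4 differed less from each other once counts were so corrected. Their log2 fold changes were then -0.69 and -0.77, against -0.37 and -0.62 without correction.

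**Figure D3:**
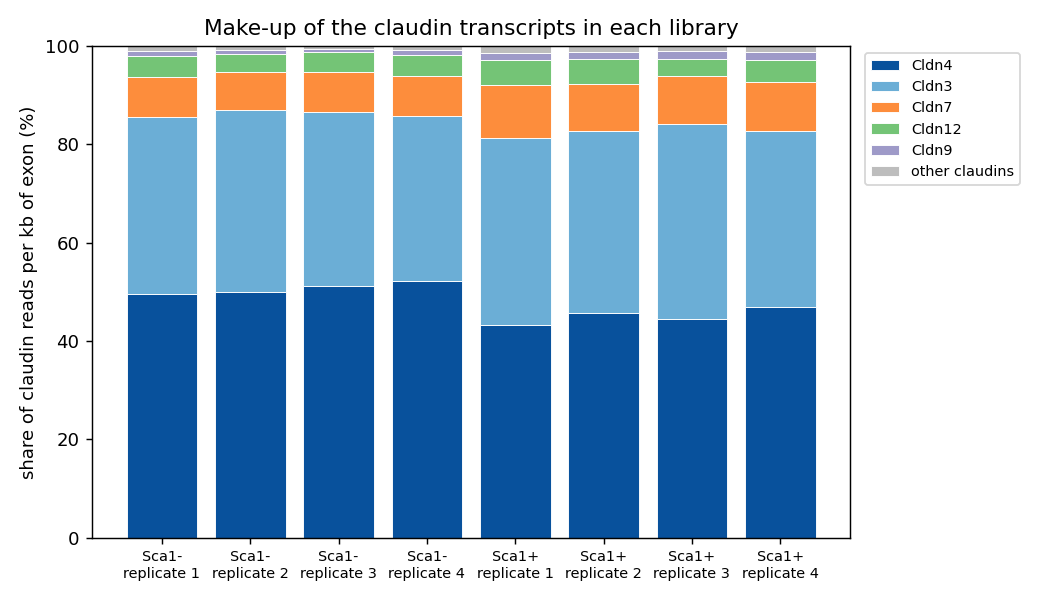
Share (percent, vertical axis) of each claudin in the claudin reads per kilobase of exon, stacked to 100 for each of the 8 libraries, with the Sca1- libraries on the left and the Sca1+ libraries on the right. Cldn4 (dark blue) and Cldn3 (light blue) fill over 81% of every column, and the Cldn7 part (orange) is wider in the Sca1+ columns.

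Among the claudins outside the set, Cldn12, which differs from most claudins in lacking the usual end that binds ZO proteins, was lower in Sca1+ cells. It had 976, 969, 805 and 904 normalized counts there and 1209, 1156, 1139 and 1206 in Sca1- cells (log2 fold change -0.35 ± 0.06 (standard error), adjusted p 6.67e-05). Cldn9, the gene next to Cldn6, was the 1 claudin called higher in Sca1+ cells among the 8 tested with edgeR. Its counts were 102, 103, 134 and 113 in Sca1+ and 90.7, 75.0, 62.3 and 86.7 in Sca1- libraries, without overlap (log2 fold change 0.53 ± 0.13 (standard error), adjusted p 0.0022). Sca1+ replicate 3 was the highest library for Cldn9. Without it the log2 fold change was 0.44 (adjusted p 0.00516), and with GC correction added it was 0.34 (adjusted p 0.0257). Cldn23 (log2 fold change -0.32, adjusted p 0.123) and Cldn15 (0.02, adjusted p 0.946) did not pass the test, and the sign for Cldn15 turned under several settings. Cldn2, a claudin of leaky epithelia, had 37 reads over the Sca1+ libraries and 10 over the Sca1- libraries and was below the filter. In tests that kept it, Cldn2 was also higher in Sca1+ cells: the adjusted p was 0.00518 by edgeR without the filter (log2 fold change 1.68 ± 0.52, standard error), 0.021 by DESeq2 (1.72) and 0.00837 by limma on the normalized table (1.46). Cldn8, Cldn16, Cldn17, Cldn19 and Cldn20 had at most 8 reads over either group.

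GC content of the transcripts moved with some of these results. The slope of log2 counts on transcript GC, relative to the mean library, was 0.0431 to 0.0774 per 10 percentage points of GC in Sca1+ replicates 1, 2 and 4 and 0.251 in replicate 3, and it was negative in all Sca1- libraries, from -0.17 to -0.02. The 3 abundant claudins of the set are GC-rich, with 62.8% for Cldn3, 57.0% for Cldn7 and 56.8% for Cldn4, beside a median of 49.8% over tested genes, whereas Ocln (42.0%), Cldn12 (44.5%) and Cldn1 (39.0%) lie below that median. With offsets that correct each library for GC, Cldn3 went from -0.37 to -0.69, Cldn4 from -0.62 to -0.77 and Cldn7 from -0.11 to -0.26 (adjusted p 3.72e-05), which is then called. Under the same correction Ocln went from -0.65 to -0.54, Tjp1 from -0.30 to -0.25 and Marveld2 from -0.52 to -0.49. All 6 genes called in the fit without correction were called with it, in the same direction. Whether the GC trend arose in the cells or in the libraries was not tested.

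**Figure D4:**
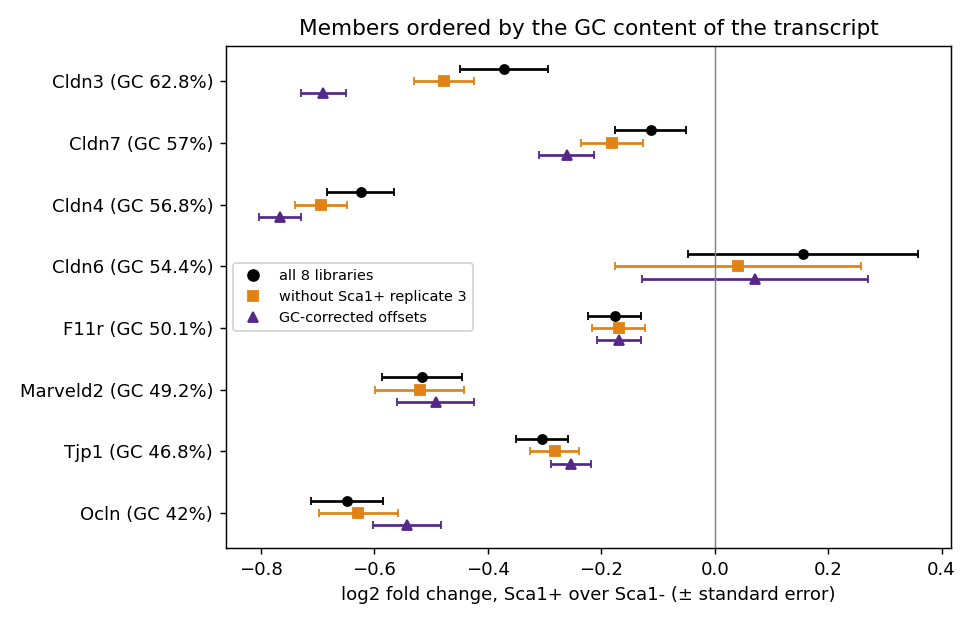
Log2 fold change of Sca1+ over Sca1- (horizontal axis, with standard error) for the 8 tested genes in the order of their transcript GC content, from all libraries (circles), without Sca1+ replicate 3 (squares) and with GC-corrected offsets (triangles). Cldn3 moves from -0.37 to -0.69 with the correction, and Ocln at the bottom moves the other way, from -0.65 to -0.54.

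The rest of the tight junction was mixed. On 4 lists of tight junction genes, 72 of 89 genes had a row and 58 were tested, of which 25 were lower and 13 higher in Sca1+ cells, with a median log2 fold change of -0.10. Without the 9 genes of the set, 19 of 50 were lower and 13 higher, and the median was -0.06. Over all tested genes, 30.2% were lower and 31.3% higher. Of 7 tested membrane proteins other than claudins, 5 were lower. Besides the 3 described above these were Lsr, the angulin that recruits tricellulin to tricellular contacts (log2 fold change -0.26, adjusted p 0.000297), and Cxadr, the coxsackievirus and adenovirus receptor (-0.14, adjusted p 0.0477), whose call was lost with GC correction (adjusted p 0.552) or without Sca1+ replicate 3 (adjusted p 0.0605).

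Of 24 scaffold and polarity genes, all tested, 12 were lower and 4 higher, beside 30.2% lower and 31.3% higher of all tested genes. Cgn, which encodes the ZO-binding protein cingulin, had the lowest fold change on the list, at 1052 ± 38.8 normalized counts in Sca1+ and 1880.0 ± 83.4 in Sca1- cells (SD, n = 4; log2 fold change -0.82, adjusted p 2.12e-10). Pard6b (-0.68, adjusted p 6.2e-09) and Prkci (-0.53, adjusted p 6.88e-08) encode PAR-6 beta and the atypical protein kinase C iota, partners in the PAR polarity complex, and both fell. Other genes of this complex were mixed. Pard3 was lower (-0.22, adjusted p 0.000356). Pard6g was higher (0.96, adjusted p 0.000351) at a low level, with means of 42.8 normalized counts in Sca1+ and 22.3 in Sca1- cells. Pard6a (-0.05, adjusted p 0.732) and Prkcz (0.32, adjusted p 0.0578) did not pass the test. The motin genes Amotl1 (0.46, adjusted p 3.21e-08) and Amot (0.31, adjusted p 0.000246), whose products bind actin and YAP, were higher together with Tjp3. Amotl2, another motin gene, was lower (-0.42, adjusted p 9.33e-07). Amotl2 and the PAR complex genes other than Pard6b and Prkci were chosen after their values were seen.

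Regulators of the junction were split, with 8 of 19 tested genes higher and 5 lower. Over all tested genes the shares were 31.3% higher and 30.2% lower. Mylk, the myosin light chain kinase that contracts the actin ring at the junction, rose by 1.33 on the log2 scale from a low level (41.8 ± 16.1 in Sca1- and 104 ± 13.8 in Sca1+ cells; SD, n = 4; adjusted p 1.25e-05). The membrane serine protease matriptase gene St14 (log2 fold change -0.55, adjusted p 3.06e-08) was lower while Spint1, which encodes its inhibitor HAI-1, was higher (0.80, adjusted p 6.41e-11). Spint2, a relative of Spint1, did not pass the test (-0.05, adjusted p 0.414). Rab13, a small GTPase of junction trafficking, was higher (0.54, adjusted p 6.73e-05), and Rock1, a kinase acting on myosin, was lower (-0.47, adjusted p 7.05e-06). Rock2, a relative of Rock1, was higher (0.20, adjusted p 0.00791), though its groups overlapped. Spint2 and Rock2 were chosen after their values were seen.

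Transcription factors that are known to act on junction genes were also tested. Of 12 such genes, 4 were higher and 6 lower in Sca1+ cells, beside 31.3% higher and 30.2% lower of all tested genes. The repressors Twist1 (log2 fold change 0.65, adjusted p 2.94e-07), Zeb2 (0.36, adjusted p 0.000183) and Snai1 (0.28, adjusted p 0.00397) were among those higher, and the call of Snai1 was lost with GC correction (0.06, adjusted p 0.339). Zeb1, a repressor of the same family as Zeb2, went the other way (-1.28, adjusted p 8.42e-06), the largest decrease on the list, from 49.0 ± 3.65 normalized counts in Sca1- to 19.9 ± 3.65 in Sca1+ cells (SD, n = 4). The epithelial factors Ovol1 (-0.58, adjusted p 4.58e-05), Elf3 (-0.34, adjusted p 0.000122) and Klf5 (-0.21, adjusted p 0.00495) were among those lower. The epithelial factor Grhl3 was higher (2.00, adjusted p 9.78e-05), the largest rise on the list, from 4.6 ± 2.08 to 18.1 ± 4.21 normalized counts (SD, n = 4), and Ehf did not pass the test (0.11, adjusted p 0.174). Grhl3 rested on 77 reads over the Sca1+ libraries and 17 over the Sca1- libraries. Grhl2, a relative of Grhl3 at a higher level, was lower in Sca1+ cells (-0.20, adjusted p 0.00192). It had 1067 ± 52.5 normalized counts in Sca1+ and 1236 ± 31.6 in Sca1- cells (SD, n = 4). Grhl1 did not pass the test (-0.26, adjusted p 0.335). Zeb1, Grhl1, Grhl2, Grhl3 and Ehf were chosen after their values were seen.

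**Figure D5:**
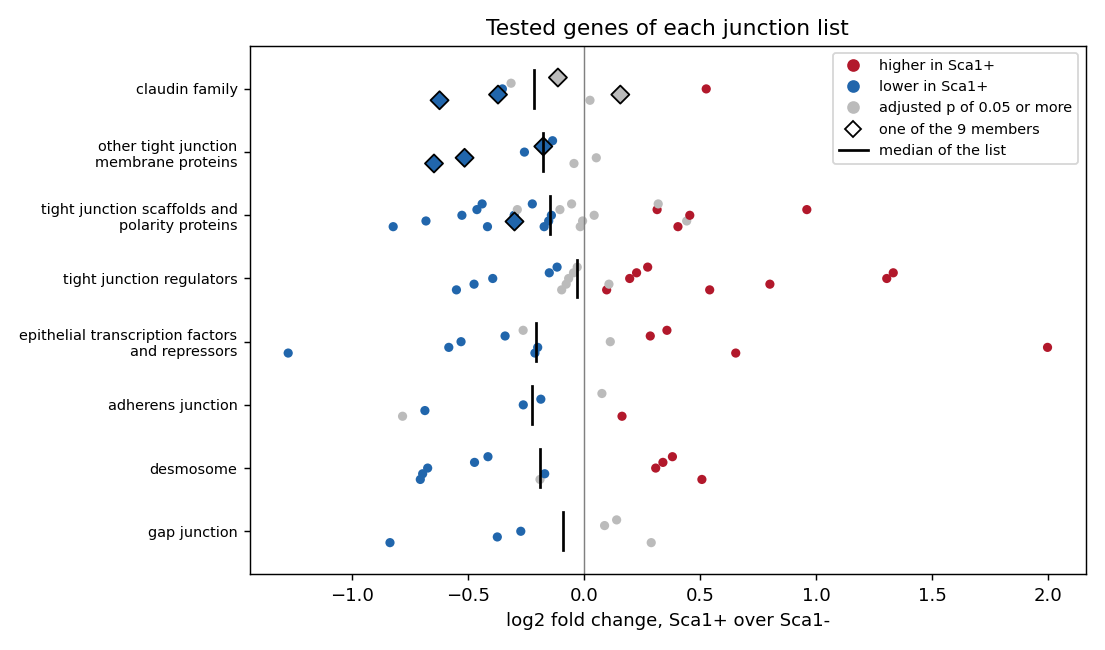
Log2 fold change of Sca1+ over Sca1- (horizontal axis) of every tested gene on 8 lists (rows) of junction genes and of transcription factors, in red where higher, blue where lower and grey where the adjusted p was 0.05 or more, with diamonds for genes of the set and a black line for the median of the list. Most diamonds lie left of 0, and the regulators spread to both sides, with Mylk at 1.33.

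Other junctions of these cells gave the comparison for the tight junction. Cdh1, which encodes the adherens junction protein E-cadherin, was lower in Sca1+ cells (3264 ± 154 against 5301 ± 92.6; SD, n = 4; log2 fold change -0.69, adjusted p 6.19e-10). Of 6 adherens junction genes tested, 3 were lower and Ctnnb1, the beta-catenin gene, was higher (0.16, adjusted p 0.00241). The alpha-catenin gene Ctnna1 (-0.19, adjusted p 0.00128) and the vinculin gene Vcl (-0.26, adjusted p 7.54e-05) were the others that fell. Of 11 desmosome genes, 6 were lower and 4 higher, with Dsp (-0.71), Pkp2 (-0.70) and Dsg2 (-0.67) lowest and Dsc2 (0.51), Jup (0.38) and Ppl (0.34) highest. Of 6 gap junction genes, 3 were lower, among them the connexin 43 gene Gja1 (-0.27, adjusted p 0.000497). Beside the counts of these lists, 30.2% of all tested genes were lower and 31.3% higher. The median log2 fold change was -0.23 for the adherens junction, -0.19 for the desmosome and -0.09 for the gap junction, beside -0.34 for the 8 tight junction genes of the set and -0.10 for the 58 genes tested on the 4 tight junction lists, and these medians were not tested against each other. Besides Cldn3, some of the genes named above have exons that lie partly across from exons of another counted gene. These were Vcl (25.5% of its bases), Ctnnb1 (14.6%), Cxadr (9.39%), Zeb2 (3.27%), Zeb1 (1.93%), Ctnna1 (1.48%) and Tjp3 (1.08%). Their counts are uncertain to that extent.

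Several of the genes lie beside one another in the genome. Cldn3 and Cldn4 are 39.3 kb apart and Ocln and Marveld2 43.2 kb apart, with no counted gene between either pair, and each pair was lower together. Within 100 kb of Ocln or Marveld2, 4 of 6 other tested genes were also lower and none was higher: Ak6 (log2 fold change -0.70), Taf9 (-0.56), Ccdc125 (-0.44) and Gtf2h2 (-0.38), whereas Cdk7 (-0.08, adjusted p 0.349) and Rad17 (-0.04, adjusted p 0.616) did not pass the test. Taf9 and Ak6 share 1564 exon bases on the same strand, so their values are not independent and the split of reads between them is uncertain. On chromosome 5 the genes within 100 kb of Cldn3 were mixed, with 2 of 7 lower, including Cldn4, and 2 higher. Around Cldn6, 7 of 11 tested genes were higher, Cldn9 among them at a distance of 0.137 kb, and 1 was lower. Beside these counts, 30.2% of all tested genes were lower and 31.3% higher in Sca1+ cells. Whether neighbours changed together was not tested. The neighbours of Ocln and Marveld2 are named here after their values were seen.

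Over the 8 libraries, the tested genes whose log2 CPM followed Cldn4 most closely were Ube2m, Il34 and Coq9, with a Pearson r of 0.996, 0.995 and 0.995. The points share the 2 groups and their depth, and 950 tested genes had an r over 0.9, so the closeness is a description only.

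The labels and the cell type were checked on the same libraries. Ly6a had 167 ± 20.2 normalized counts in Sca1+ and 1.79 ± 1.73 in Sca1- cells (SD, n = 4). Total counts ran from 15041995 to 16968215 in Sca1+ and from 13561804 to 16142836 in Sca1- libraries. All 6 epithelial markers were expressed, of which 2 were higher in Sca1+ cells (Krt18 with a log2 fold change of 0.38 and Krt8 with 0.31) and 2 lower (Cdh1 with -0.69 and Krt7 with -0.20). Epcam (-0.03, adjusted p 0.552) and Krt19 (0.01, adjusted p 0.931) did not pass the test. Of 15 leukocyte markers, 11 were counted and the 4 tested (Cd74, Csf1r, Cd68 and S100a8) were all higher in Sca1+ cells. Of the exon bases of Csf1r, 15.1% lie across from exons of the counted gene Hmgxb3. Summed over the 11 markers, the level was 409 to 478 normalized counts in Sca1+ and 231 to 274 in Sca1- libraries. The 7 markers counted but not tested had at most 10 counts in every library. Among them was Ptprc, the CD45 gene, with 10 reads over the Sca1+ libraries and 2 over the Sca1- libraries. In the same order, Itgam had 10 and 11 reads, Itgax 11 and 12, and Lyz2 0 and 1. Cd79a had 24 and 18, and Cd3e and S100a9 had 3 and 1 each. Of 9 fibroblast markers, 7 were counted and 3 tested, of which Col1a1 (log2 fold change 0.75) and Pdgfra (0.63) were higher in Sca1+ cells. Sums over the 7 were 634 to 671 in Sca1+ and 395 to 468 in Sca1- libraries, mostly from Pdgfra (means 560 and 364). The 4 not tested had few reads over the Sca1+ and Sca1- libraries: Dcn 49 and 4, Pdgfrb 27 and 1, Col1a2 19 and 18, and Fap 4 and 11. Of 9 endothelial markers, 7 were counted and 1 was tested, Tie1, which was lower. Sums over the 7 were 34.7 to 43.9 in Sca1+ and 43.4 to 66.2 in Sca1- libraries. Of those not tested, Pecam1 had 21 and 4 reads over the Sca1+ and Sca1- libraries. Esam had 24 and 32, Cdh5 3 and 7, Vwf 5 and 3, and Tek and Emcn 0 and 1 each. The part of such cells in the tight junction result was not tested.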

How the data were processed

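RNA from Sca1+ and Sca1- cells, separated on magnetic columns, was sequenced in 4 libraries per group with a TruSeq kit that does not mark strand. The submitters' processing notes name cutadapt 1.16, STAR 2.5.3a and GRCm38/mm10, and the counting tool and annotation are not given in the sources used here. The authors deposited raw counts per Ensembl gene for 16341 genes and a normalized signal table for 15372 of them, which equalled the counts divided by the DESeq2 size factors of the libraries. Symbols, positions and GC content came from GENCODE M21 (GRCm38), which need not be the authors' annotation.

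Counts were tested with edgeR 4.0.16 in R 4.3.3 (TMM, filterByExpr, glmQLFit and glmQLFTest, two-sided, no covariate), with Benjamini-Hochberg adjustment over the 11717 genes kept. 4624 genes were not tested. Normalized counts are counts divided by size factors. Levels per kilobase use the summed exon length. Alternatives were DESeq2 1.42.0, limma 3.58.1, other scalings and filters, GC- or length-corrected offsets, a replicate block, stricter thresholds and leaving out each library. GC correction with Sca1+ replicate 3 left out was chosen after seeing the data.

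The 9 genes, the gene lists and the tests were chosen with earlier results of these data known. Genes named outside the set were the other counted claudins, the paralogs of the set, Cdh1 and Ly6a, and up to 3 called genes at each end of each junction and factor list with a mean of at least 50 normalized counts. Further list genes and neighbours were named after their values were seen, as stated where they appear. A few genes that this rule names are not reported here. No 2 replicates agreed within sampling noise. Reads carry no molecular identifiers, so statements on depth cover counting error only.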

Additional observations from a re-analysis of the deposited data

Results flagged for a closer look

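In 99 groups of 4 libraries, the library at either end was compared with the rest by the ratio of its gap to the range of the group, against the 95% critical value of Dixon. Of these, 5 groups held a library past the limit, and chance gives about 1 in 20, here 4.95. In 4 of them the library was Sca1+ replicate 3, whose counts depended more strongly on transcript GC content than those of any other library. Cldn3 had 2811 normalized counts in it, beside 2136 to 2206 in the other Sca1+ libraries. Tjp3 had 404 beside 332 to 335, Jup, the plakoglobin gene, had 3637 beside 2972 to 3055, and Zeb2 had 479 beside 530.4 to 538. Dsg2, the desmoglein 2 gene, was low in Sca1+ replicate 4, at 370.2 beside 407 to 414. The part of the GC trend in these values was not tested.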

How the results depend on the processing

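The 6 genes of the set that were called kept their direction and their call under every alternative except a required absolute log2 fold change of at least 1, at which 0 were called, since their values were -0.37 for Cldn3, -0.62 for Cldn4, -0.65 for Ocln, -0.52 for Marveld2, -0.18 for F11r and -0.30 for Tjp1. That limit also left 612 higher and 103 lower genes over all tested genes, and 2 higher and 0 lower on the tight junction lists. Of 176 values of the set under alternatives, 166 kept direction and side of the threshold. Cldn7 became a called decrease with GC-corrected offsets (-0.26), on leaving out Sca1+ replicate 3 (-0.18) and with both (-0.29), so that 7 genes of the set were then lower, and Cldn6 turned to -0.0191 with both. Leaving out each library gave 6 to 7 lower genes of the set, -0.18 to -0.0622 for Cldn7, -0.48 to -0.32 for Cldn3 and 0.04 to 0.27 for Cldn6. Cldn15 reversed with GC-corrected offsets (-0.0509) and over the left-out libraries ran from -0.14 to 0.15, and Marveld3 reversed without Sca1+ replicate 3 (-0.0328; -0.0328 to 0.16 over left-out libraries) and with GC correction added (-0.0608). Not dividing by exon length moved the share of Cldn3 and Cldn4 among claudin reads to 75.0% in Sca1+ and 79.3% in Sca1- cells. Claudins called higher numbered 2 in place of 1 with no filter, by DESeq2 and by limma on the normalized table, the second being Cldn2. The causes were not tested.

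No pairing by replicate number was seen, with correlations of the deviations from -0.15 to 0.10 between same-numbered libraries. The labels do not say whether same-numbered libraries came from the same sort. With the replicate block, 3605 genes were higher and 3452 lower, beside 3668 and 3538 without it, and no call of the set changed. The depth limits the low claudins: Cldn1 fell below the low-count filter and did not pass the test where the filter was removed, and the standard error of Cldn6 exceeds its difference.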
